A study of Mus musculus with 14 samples.

Results

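Poly(A) sites found in one tissue only were collected from 14 mouse 3P-seq libraries. 3P-seq, a method that captures and sequences the ends of polyadenylated transcripts, gives tags, each of which marks a position where a transcript was cleaved and polyadenylated. A one-tissue site had tags above 0 in both the miR-22 knockout (KO) and the wild-type (WT) library of a single tissue and 0 tags in the other 12 libraries. After same-strand intervals that overlapped or touched were merged and chromosomes X and Y were left out, 11318 of 155824 sites met this rule, which is 7.26%. The tag values themselves thus chose the sites, and a site's difference between tissues is given as a description. They held 0.184% of the tags of the 12 tissue libraries.

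The tissue libraries came from miR-22 knockout and wild-type mice, both of the 129S5/SvEvBrd background; the knockout allele is named miR-22D and lacks a microRNA known from heart and muscle. The miR-22 locus was not analysed here. Each genotype had 1 library each of lung, liver, kidney, heart, muscle and white adipose tissue. The other 2 libraries were made from 3T3 fibroblasts and from embryonic stem cells of the mouse (mESC), carried no genotype label and entered only as libraries in which a site had to be absent. The labels state that there were no biological replicates, and they give neither the animals' age nor whether tissues share an animal. The KO and WT library of a tissue are therefore the only pair in which a site could be seen again. The libraries held between 2036838 tags (KO adipose tissue) and 6010465 tags (KO lung). Levels are given as CPM, the tags of a site per 1000000 tags of its library. A count of 0 allows up to 1.47 CPM in KO adipose tissue and up to 0.499 CPM in KO lung, at 3 tags of the library's total. Intervals and such limits cover counting error only, because the labels mention no molecular identifiers and tags may be copies of 1 molecule. In tissue RNA, fewer cells of a type and less RNA per cell cannot be told apart.

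Most mammalian genes carry several poly(A) sites. The site is chosen during transcription by the cleavage and polyadenylation machinery, which reads a short hexamer upstream of the cut and U- or GU-rich sequence downstream of it. Tissues are known to differ both in which genes they transcribe and in where the transcripts of widely expressed genes are cut. Sites within introns, in the last exon ahead of the main end and beyond it are all known. The files carry positions in mouse build mm9 and no gene names, and no annotation or sequence of that build was used here, so that sites are named by position and the tissue labels were not checked against marker genes.

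Lung had the most one-tissue sites, 3438, followed by liver with 2993 and kidney with 2130. Heart had 1216, muscle 827 and white adipose tissue 714. Against the number of sites with tags in both libraries of a tissue, liver had the highest share, 7.07% of 42333, and adipose tissue the lowest, 1.82% of 39235. The share was 5.46% in lung, 4.55% in kidney, 3.2% in heart and 2.83% in muscle. These numbers and their order depended on depth. If every library were thinned to the 2036838 tags of the shallowest, the number expected from the tag counts would be 2508 in liver, 2266 in kidney, 2069 in lung, 1364 in adipose tissue, 1242 in heart and 856 in muscle. Mitochondrial tags, among which no one-tissue site lay, took between 3.52% of a tissue library (WT lung) and 31.3% (KO heart), so that equal totals leave nuclear tags unequal. Thinned instead to the same 1853441 nuclear tags, an alternative added after the data were seen, kidney led with 2523 sites, followed by liver with 2352, lung with 1807, heart with 1497, adipose tissue with 1325 and muscle with 921. Under both ways of thinning liver and kidney stood above lung, and muscle had the fewest.

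**Figure D1:**
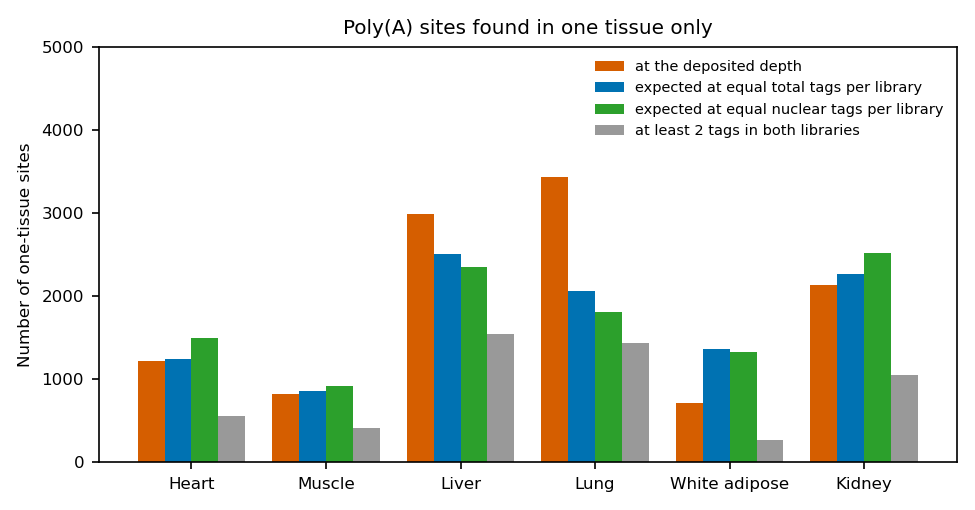
Number of one-tissue poly(A) sites by tissue (bars). Orange bars give the number found, blue bars the number expected if all libraries had the same total of tags, green bars the number expected if all had the same total of nuclear tags, and grey bars the number with at least 2 tags in both libraries; lung leads with 3438 sites as found, liver with 2508 at equal total tags and kidney with 2523 at equal nuclear tags.

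One-tissue sites were sparse. The median number of tags over the KO and WT library together was 5 in liver and muscle, 4.5 in kidney, and 4 in heart, lung and adipose tissue. Shared sites, taken as those with tags in libraries of at least 2 tissues, had medians of 9 to 10 tags in the tissues where both libraries held them. Between 5.05% (liver) and 6.81% (lung) of the one-tissue sites had at most 1 tag in each of their 2 libraries. Of the 11318 sites, 5272 had at least 2 tags in both libraries. The others had fewer than 2 tags in 1 library or in both and thus lay just inside the rule. At least 10 tags in each library were found at 151 liver sites, 77 kidney sites, 68 lung sites, 37 muscle sites, 25 heart sites and 9 adipose sites. Just outside the rule lay sites with at most 1 tag in the other 12 libraries together. There were 3760 of these in lung, 1729 in kidney, 1632 in liver, 1078 in heart, 1001 in adipose tissue and 486 in muscle, with a median of 3 or 4 tags in their own tissue.

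A few sites held much of the signal. The tenth of muscle sites with the most tags (83 sites) held 46.1% of the tags at muscle's one-tissue sites, and the corresponding share was 42.2% in liver, 36.4% in kidney, 33.6% in lung, 30.8% in heart and 29.8% in adipose tissue. The sites were divided about evenly between the strands, 5747 on plus and 5571 on minus. None lay on the mitochondrial genome, where each tissue had 46 to 51 shared sites. A value that was not a whole number occurred at 0.451% of one-tissue sites and at 10.6% of shared sites, which also had more tags.

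From 2 tags upward, how often a site came back in the second library of its tissue rose with its tags. Each tissue library was taken in turn, and its sites with 0 tags in all libraries outside its tissue were looked up in the library of the other genotype. A site with tags in both libraries entered once from each, so that sites found again weigh more. Of 1302 such entries with 10 tags or more, 1287 were found again (98.8%). The share was 92.2% at 5 to 9 tags and 71.2% at 3 to 4 tags. It was lower at 2 tags (39.1%) than at 1 tag (48.8%). Of the sites with tags in 1 library of all 14, 15263 had 2 tags and 10103 had 1 tag, so that 1-tag sites were fewer in the deposited lists than 2-tag sites.

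**Figure D2:**
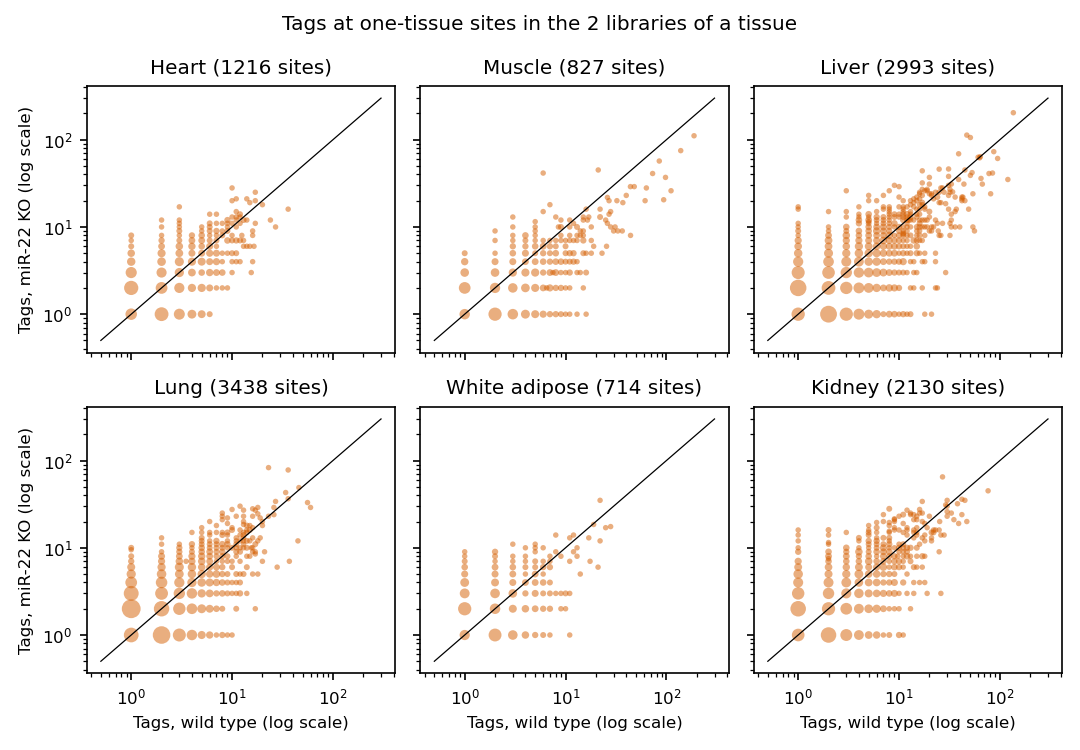
Tags at each one-tissue site in the KO library (y axis) and the WT library (x axis) of its tissue, both on log scales; larger points stand for more sites and the line marks equal numbers. At 9119 of the 11318 sites both libraries have at most 5 tags, and the highest points are in liver (204 KO and 136 WT tags) and muscle (111 and 188).

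The one-tissue site with the most tags was in liver, at chromosome 8, 107580866 to 107580927 (+). It had 204 tags in KO liver and 136 in WT liver, or 60.9 and 32.4 CPM (exact 95% intervals 52.9 to 69.9 in KO and 27.2 to 38.3 in WT). It lay 1301 nt upstream of a shared site that had 103 CPM in KO liver and 112 in WT liver, against at most 2.38 in any other library. The site at chromosome 7, 14996957 to 14997008 (-) had 73 tags in KO liver and 87 in WT liver, and it outnumbered the shared site 67 nt from it, which had 12.2 and 7.85 CPM. The liver site at chromosome 16, 26714075 to 26714126 (-) had 61 KO and 95 WT tags, while the nearest shared site, 4528 nt away, had 0 tags in both liver libraries. Those at chromosome 2, 34951007 to 34951124 (-) and chromosome 19, 39642916 to 39642967 (+) had 64 and 62 KO tags and 64 and 63 WT tags.

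In muscle the leading site was at chromosome 11, 67072637 to 67072688 (+), with 111 tags in KO muscle and 188 in WT muscle. That is 47.8 and 46.2 CPM (exact 95% intervals 39.3 to 57.5 in KO and 39.9 to 53.3 in WT). Its shared neighbour, 1253 nt downstream, was far more abundant, with 69400 CPM in KO muscle, 60500 in WT muscle and at most 414 in any other library. The site at chromosome 1, 44066371 to 44066418 (-) had 75 KO and 138.7 WT tags, or 32.3 and 34.1 CPM, and stood 143 nt from a shared site with 51.6 CPM in KO muscle and 75.8 in WT muscle. The site at chromosome 15, 61738331 to 61738363 (+) stood alone. It had 57 KO and 85 WT tags, and the nearest shared site on its strand was 83550 nt away.

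In kidney the leading site, at chromosome 19, 38424065 to 38424096 (+), had 45 KO and 76.4 WT tags. A pair of kidney sites on the minus strand of chromosome 7, at 26398926 to 26398958 and 26399637 to 26399750, had 35 and 36 KO tags and 45 and 42 WT tags. They stood on either side of 1 shared site that had 15.5 CPM in KO kidney, 27 in WT kidney and at most 0.491 elsewhere. The kidney sites at chromosome 2, 113194182 to 113194214 (+) and chromosome 11, 33993042 to 33993075 (-) were remote, 153562 and 134158 nt from any shared site on their strand, with 32 and 25 KO tags and 38 and 33 WT tags.

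Leading sites in the other tissues were sparser. The lung site whose lower level of the 2 libraries was highest, at chromosome 12, 57365924 to 57365957 (-), had 49 KO and 46 WT tags and lay 33143 nt from a shared site. The lung site with the most tags, at chromosome 11, 3975941 to 3975971 (+), had 78 KO and 36 WT tags. In heart the site at chromosome 14, 32024478 to 32024585 (+) had 20 KO and 17 WT tags, 311 nt upstream of a shared site with 2130 CPM in KO heart, 3760 in WT heart and at most 36.5 elsewhere. The heart site at chromosome 18, 16873823 to 16873856 (-) had 25 KO and 17 WT tags, with the nearest shared site 58552 nt away. Adipose tissue had 17.5 KO and 28 WT tags at chromosome 11, 101200336 to 101200370 (+). Its site with the most tags was at chromosome 13, 105711820 to 105711852 (+), with 35 KO and 22 WT tags.

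One-tissue sites stood farther from shared sites than shared sites stood from each other. Of the 11318, 63.1% had a shared site within 5 kb on the same strand. This share depended on what counts as shared: with shared sites restricted to those with tags in all 12 tissue libraries it was 14.1%, and lung (20.5%) and heart (16.4%) then stood above liver (10.7%). With sites of at least 2 tissues counted as shared, by tissue the share was 70% in liver, 64.2% in lung, 60.8% in kidney, 59.5% in heart, 53.4% in adipose tissue and 52.8% in muscle. For shared sites with tags in both libraries of the tissue, the share with another shared site within 5 kb lay between 85.2% in adipose tissue and 88.5% in muscle. The difference was -26.7 percentage points on average (SD 6.59, n = 6 tissues) and was negative in 6 of 6 tissues (exact two-sided sign-flip p = 0.0312, the smallest the design allows; 0.0469 after Benjamini-Hochberg adjustment over 3 tests). The tissues share many of the shared sites and are not fully independent. The presence of tags defines both classes, and a nearby site of the same tissue alone cannot count as shared. The definition thus bears on the sign of this difference, and the p-value is not read as support for a trait of the sites. Against shared sites with at most 10 tags in the tissue, an alternative added after the data were seen, the difference was -22.6 points.

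The median distance to a shared site ran from 1231 nt in liver to 4063 nt in muscle, against 222 to 276 nt among shared sites. In heart it was 1660.5 nt, in lung 1615.5, in kidney 1795 and in adipose tissue 3877.5. Of the sites seen in a single tissue library, 67.9% had a shared site within 5 kb, more than among one-tissue sites in 5 of 6 tissues, while in liver the share was 70% for one-tissue sites and 69.3% for single-library sites. At the far end, 1396 one-tissue sites (12.3%) had no shared site within 50 kb on their strand, from 7.25% in liver to 19.5% in muscle. Of these, 709 had none within 50 kb on either strand. Remote sites were not sparser, with a median of 4 tags both beyond 50 kb and within 5 kb, but 20 tags or more were reached by 3.94% of the remote sites and 5.74% of the near ones.

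**Figure D3:**
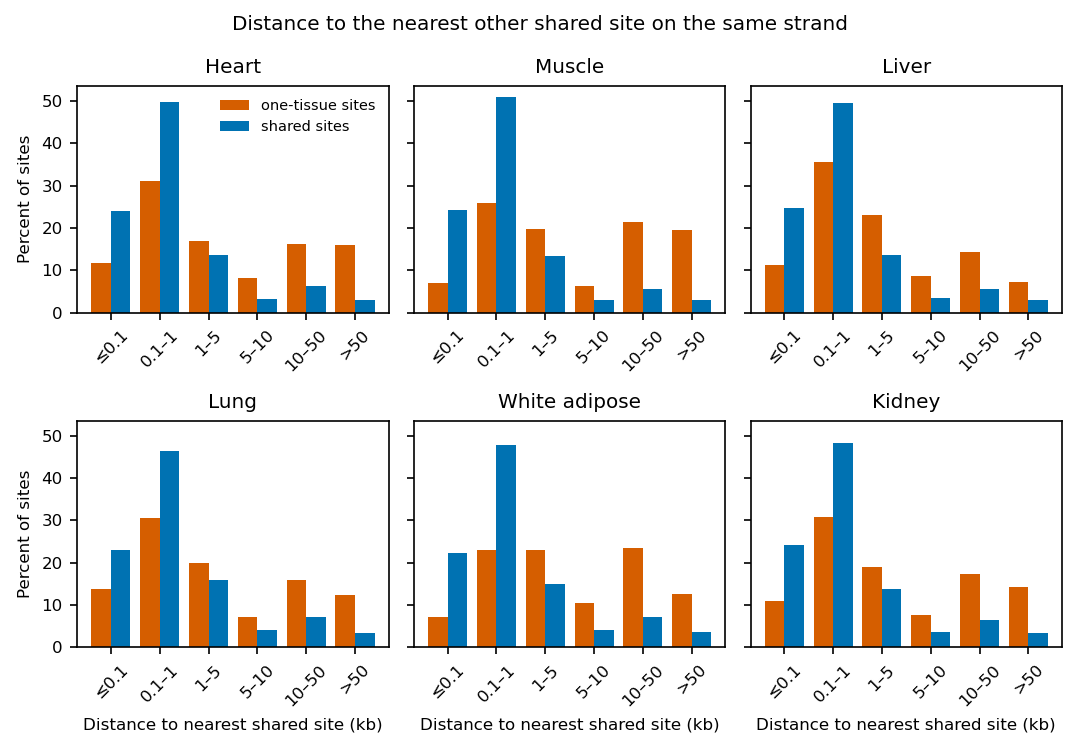
Percent of one-tissue sites (orange) and of shared sites with tags in both libraries of the tissue (blue) by distance in kb to the nearest other shared site on the same strand, 1 panel per tissue. In every panel shared sites peak at 0.1 to 1 kb (46.5% to 51%), and one-tissue sites are more often beyond 50 kb (7.25% to 19.5% against 2.89% to 3.6%).

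Near one-tissue sites lay on both sides of their shared neighbour. Of the 7140 within 5 kb, 3952 were upstream of it and 3188 downstream (44.6%). The share downstream was 38.7% in heart, 41.7% in liver, 42.9% in kidney, 47% in adipose tissue and 47.9% in lung, and 55.4% in muscle, the one tissue with more sites downstream. The one-tissue site had a median of 30.8% of its neighbour's tags in the same tissue, from 22.7% in liver to 66.7% in adipose tissue. It had more tags than its neighbour in 1726 cases (24.2%), among them 205 (2.87%) in which the neighbour had no tag in that tissue.

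Many of the shared neighbours were themselves higher in the same tissue. Abundance at all sites was fitted in edgeR over the 12 tissue libraries, with each tissue set against the average of the remaining 5. In liver 495 of 530 tested neighbours were called higher in liver (93.4%), against 13.8% of all tested sites. A call needed a 4-fold or larger difference and an edgeR adjusted p below 0.05. The number was 114 of 124 in muscle (91.9%, against 8.61% of all sites), 142 of 161 in heart (88.2%, against 9.15%) and 351 of 398 in kidney (88.2%, against 13.8%). It was 77 of 89 in adipose tissue (86.5%, against 8.65%) and 416 of 589 in lung (70.6%, against 12.5%). Tested neighbours were those that passed the filter on low counts, 161 of 573 in heart and 530 of 1261 in liver, and a site abundant in 1 tissue alone could pass through that tissue. With no filter on low counts the calls were 295 of 573 neighbours in heart, 184 of 304 in muscle, 791 of 1261 in liver, 816 of 1833 in lung, 140 of 338 in adipose tissue and 535 of 922 in kidney. The background over all sites was then 2.79% for heart, 2.31% for muscle, 4.48% for liver, 5.54% for lung, 2.33% for adipose tissue and 3.9% for kidney. Those 147416 sites take in the one-tissue sites and sites with tags in a single library, whereas the neighbours are all shared sites. The neighbours were also picked through the rule's tag values, since they lie near sites required in that tissue and absent from the others. No share was computed over shared sites with tags in that tissue. The calls are therefore given as a description and not as a test of the neighbours. The share of near one-tissue sites with a called neighbour ran from 26.1% in lung to 49.6% in liver. Of the one-tissue sites 316 passed the same filter. Their contrast between tissues is the one the rule used and is not reported as a test.

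One-tissue sites of a tissue lay close together. The nearest one-tissue site on the same strand belonged to the same tissue for 81.8% of liver sites, although liver held 26.4% of all one-tissue sites. The corresponding values were 70.5% and 18.8% in kidney, 67.4% and 30.4% in lung, 63.7% and 7.31% in muscle, 59.5% and 10.7% in heart, and 48.2% and 6.31% in adipose tissue. The excess was 48.5 percentage points on average (SD 7.68, n = 6 tissues) and was positive in 6 of 6 tissues (exact two-sided sign-flip p = 0.0312, the smallest the design allows; 0.0469 after adjustment over 3 tests). The 6 values come from a single pool of sites, in which neighbours can be each other's nearest, and are not fully independent. The reference mixes tissues in proportion to their numbers of sites and makes no allowance for several sites in a transcript. The p-value refers to that mixing alone. Apart from their own tissue, one-tissue sites of the other tissues had lung as the most frequent neighbour, most often in adipose tissue at 24.5%, and lung had the most sites.

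**Figure D4:**
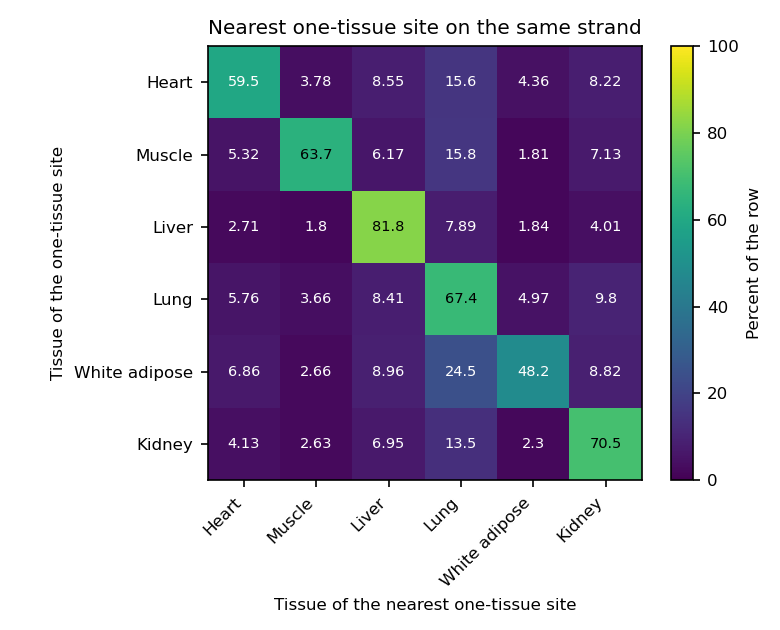
Percent of the one-tissue sites of each tissue (rows) whose nearest one-tissue site on the same strand belongs to the tissue of the column; each row adds to the whole. The diagonal runs from 48.2% in adipose tissue to 81.8% in liver.

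Linked at distances of up to 10 kb on the same strand, 69.1% of liver sites had another liver site in their cluster. The share was 54.5% in kidney, 53.2% in muscle, 45% in heart, 40.2% in lung and 32.5% in adipose tissue. Clusters of 5 sites or more numbered 147 in liver, 63 in kidney, 57 in lung, 23 in heart, 21 in muscle and 7 in adipose tissue, 318 in all. In liver they took up 42.4% of the sites and 55.1% of the tags, in lung 12.1% and 21.7%, and in adipose tissue 6.44% and 11.5%. The median span was 8.54 kb and the longest 48.8 kb. Within the span of 316 of the 318 clusters there was no one-tissue site of another tissue on that strand. How often spans of such length elsewhere lack these sites was not computed, so the number is not read as a trait of the clusters. In 43 of the 318 clusters there was no shared site on that strand. In 255 the summed level of the shared sites in the span was higher in both libraries of the cluster's own tissue than in any other library. Clusters without a shared site could not be among these. No such share was computed for other spans of that length, so this number is not read as a trait either.

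The cluster with the most sites was in liver, at chromosome 12, 7985022 to 8023185 (+). It held 91 one-tissue sites in 38.2 kb, a median of 142.5 nt apart, with 2 to 39 tags each. Together they had 446 tags in KO liver and 353 in WT liver, or 133 and 84 CPM. The 15 shared sites within the span had 47 CPM in KO liver, 45 in WT liver and at most 4.21 elsewhere, so that here the one-tissue sites outweighed the shared ones. The second liver cluster was of another kind. At chromosome 6, 128432302 to 128475281 (-), 29 one-tissue sites with 32.9 and 33.8 CPM in KO and WT liver lay in the span of a shared site, at 128433573 to 128433745, that had 4660 and 6060.

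In heart both leading clusters were on chromosome 14, on opposite strands, and their spans overlapped. The one at 55560244 to 55600814 (-) held 21 sites with 68 KO and 105.5 WT tags. Near its downstream end stood a shared site at 55560742 to 55560827 with 12000 CPM in KO heart, 20200 in WT heart and at most 360 elsewhere. The one at 55592318 to 55627030 (+) held 19 sites with 90 KO and 90 WT tags, and its 9 shared sites had 48.2 CPM in KO heart, 47.8 in WT heart and at most 1.83 elsewhere.

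In kidney the largest cluster, at chromosome 13, 55503042 to 55516995 (+), held 23 sites with 158.5 KO and 136 WT tags in 14 kb. Shared sites in that span had 2200 CPM in KO kidney, 2120 in WT kidney and at most 19.5 elsewhere. The next, at chromosome 9, 123491247 to 123504225 (-), held 14 sites with 76 KO and 74 WT tags. In lung 20 sites lay at chromosome 6, 72256575 to 72269186 (+), with 63 KO and 81 WT tags, around shared sites that had 5970 CPM in KO lung, 11300 in WT lung and at most 129 elsewhere. The second lung cluster, at chromosome 11, 3968538 to 3978755 (+), was again one in which one-tissue sites were about as abundant as shared ones. Its 17 sites, which include the chromosome 11 site described above, had 28.6 CPM in KO lung and 24.7 in WT lung, and its 5 shared sites had 20 and 26.7.

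Clusters in muscle and adipose tissue were small. In muscle 9 sites lay at chromosome 10, 106927172 to 106930016 (-), within 2.85 kb, with 35 KO and 67 WT tags. Another 9 lay at chromosome 8, 56134946 to 56164828 (-), over 29.9 kb, with 42.8 KO and 75 WT tags. In adipose tissue 12 sites with 72.5 KO and 85 WT tags were found at chromosome 11, 101199217 to 101209882 (+), and 9 with 31 KO and 29 WT tags at chromosome 2, 136333530 to 136357626 (+).

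**Figure D5:**
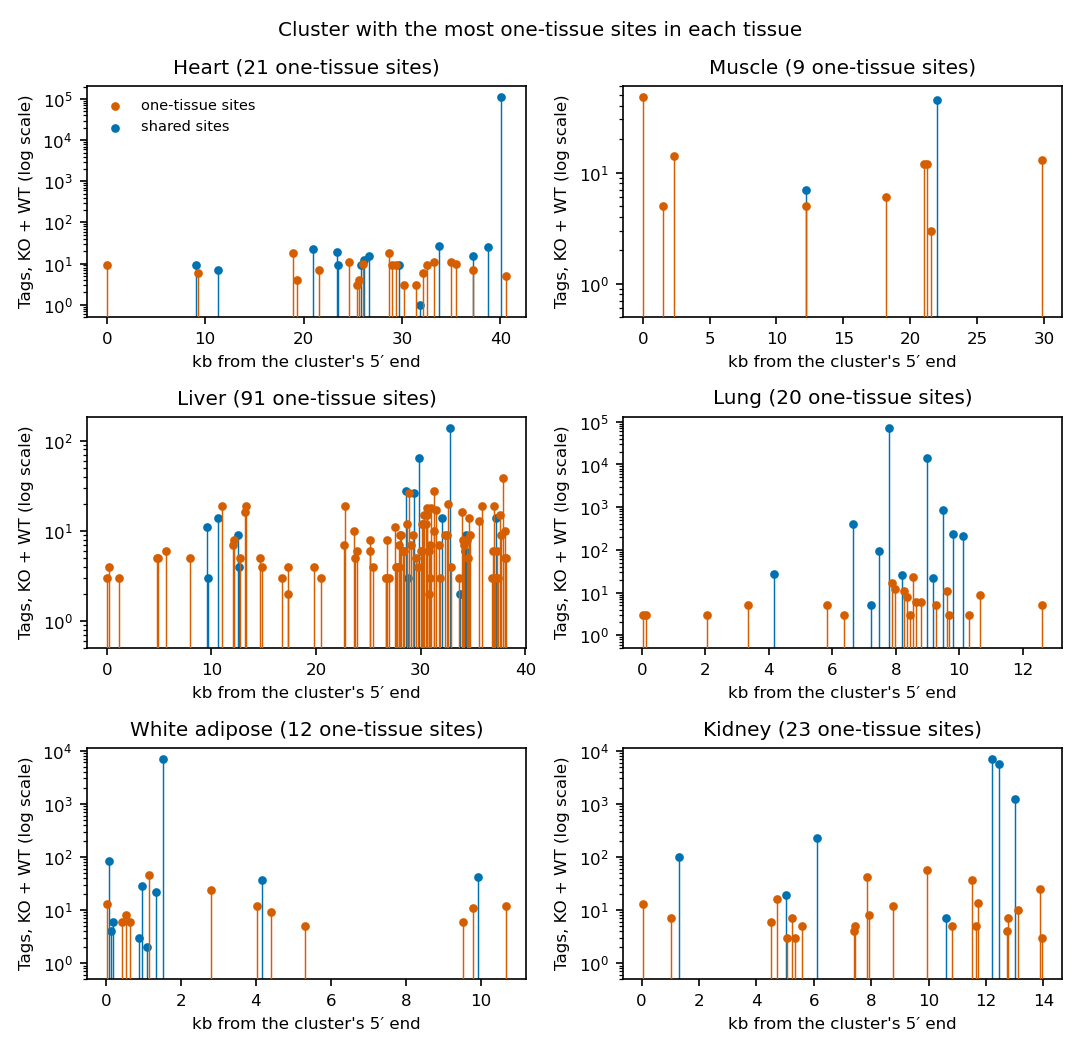
The cluster with the most one-tissue sites in each tissue: tags in the KO and WT library together (y axis, log scale) by distance in kb from the 5′ end of the cluster (x axis), for one-tissue sites (orange) and shared sites of the same strand (blue). In heart and adipose tissue 1 shared site towers over the rest, while in liver 91 one-tissue sites crowd a span whose highest site is a shared one.

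The numbers per chromosome were uneven. Chromosome 14 held 8.31% of heart's one-tissue sites (95% Wilson interval 6.88 to 9.99) against 3.73% of its shared sites, and 60 of these sites were in clusters of 5 or more. Chromosome 12 held 7.62% of liver's (6.72 to 8.62) against 3.96%, with 148 of 228 in such clusters. Chromosome 16 held 6.77% of muscle's (5.25 to 8.69) against 3.61%, with 18 of 56 in clusters of 5 or more, and chromosome 13 held 6.34% of kidney's (5.38 to 7.45) against 4.15%, with 44 of 135. On these last chromosomes most of the sites were thus outside such clusters. In lung and adipose tissue no chromosome reached that contrast, with ratios of at most 1.32 in lung and 1.41 in adipose tissue. These intervals treat sites as independent, which linked sites are not.

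Sites confined to 2 tissues, with tags in both libraries of each and 0 in the other 10 libraries, were most numerous for liver and kidney, at 886. There were 354 for lung and kidney, 317 for heart and lung, 279 for lung and adipose tissue, 247 for liver and lung, and 241 for heart and muscle. Muscle shared 14 such sites with liver and 17 with kidney. Sites that were absent from the other 10 tissue libraries but had tags in a cell line were most frequent in lung. There 857 sites were kept out of the rule by mESC or 3T3 alone, 20% of the sites found in no other tissue, against 16.6% in adipose tissue, 11% in kidney, 7.18% in heart, 6.97% in muscle and 6.09% in liver. Of the 857, 373 had tags in mESC alone, 269 in 3T3 alone and 215 in both.

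The genotype comparison asked whether one-tissue sites took a different share of the tags in KO and WT tissue. The rule bears on this share, since it asks for a tag in both libraries and so favours sites that are high in the shallower one. In kidney they held 2782 CPM in KO and 1993 in WT (exact 95% intervals 2721 to 2844 and 1949 to 2039). In adipose tissue they held 949 in KO and 646 in WT, in liver 3622 and 3151, and in muscle 1255 and 1151. In heart the order was the other way, 1004 in KO and 1092 in WT, and so it was in lung, 1747 and 2037. In 6 of 6 tissues the share was higher in the library with fewer total tags, which was WT in heart and lung and KO in the other 4. Totals include mitochondrial tags, and by nuclear tags KO was the smaller library in heart (log2 KO over WT -0.04). Over the 6 tissues the mean log2 difference was 0.17 (SD 0.31), higher in KO in 4 of 6 tissues, which is within the spread between tissues (exact two-sided sign-flip p = 0.281, also 0.281 after adjustment over 3 tests). With nuclear tags as the denominator the mean log2 difference was also 0.17 (p = 0.188 by the same exact test). In an alternative added after the data were seen, both libraries of a tissue were thinned to the lower total of the pair, with a tag still asked of both. The expected CPM were then 2614 in KO and 1993 in WT kidney, 838.1 and 646 in adipose tissue, 3490 and 3151 in liver, 1155 and 1151 in muscle, 1004 and 1070 in heart, and 1747 and 1907 in lung. The mean log2 difference was 0.12 (SD 0.23; p = 0.281 by the same exact test). With pairs thinned to equal nuclear tags the mean was also 0.12, and heart turned to 0.04 and muscle to -0.03. The 2 libraries of a tissue differ in animal and library as well as in genotype, and within a tissue these cannot be told apart.

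No tested one-tissue site was called between genotypes. The 316 tested passed the filter on low counts through the tags of their own tissue, and 11002 one-tissue sites did not pass it. In the edgeR fit 0 of the 316 tested had an adjusted p under 0.05, and the smallest was 0.39, while 82 of all 23856 tested sites were called (0.344%). At an unadjusted p under 0.05 there were 14 of the 316, 5 higher and 9 lower in KO, which is 4.43% against 6.97% of all tested sites. DESeq2 also called 0, but it gave an adjusted p for only 8 of the 316. Since a one-tissue site has tags in 1 tissue, its genotype term rests on 1 pair of libraries. The median fitted log2 difference was -0.13 over the tested one-tissue sites and -0.02 over all tested sites.

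Single sites could differ far more between the 2 libraries of a tissue. Among the 572 one-tissue sites with at least 20 tags in both libraries together, the exact binomial 95% interval of the KO to WT ratio lay above 1 at 73 and below 1 at 57. The ratio was over 2-fold in either direction at 12 of 40 such sites in heart, 14 of 63 in muscle, 56 of 221 in liver, 28 of 107 in lung, 3 of 14 in adipose tissue and 45 of 127 in kidney. Neither count was made over shared sites with as many tags, so neither is given as particular to one-tissue sites. The intervals cover counting error only, so the 73 and 57 sites are not calls between genotypes. The largest ratio was at the muscle site at chromosome 11, 67011635 to 67011672 (+), with 41.5 KO and 6 WT tags, 12.1-fold higher in KO (5.18 to 35.3). A liver site followed, at chromosome 3, 84032929 to 84032956 (-), with 26 KO and 3 WT tags, 10.9-fold higher in KO (3.33 to 56.2), and another, at chromosome 7, 47169904 to 47169938 (-), had 23 KO and 5 WT tags. The 3 largest ratios in the other direction were all in liver. The first, at chromosome 1, 141709809 to 141709862 (-), had 1 KO and 21 WT tags, 16.7-fold lower in KO (2.69 to 690). Those at chromosome 16, 66958280 to 66958304 (+) and chromosome 18, 65412241 to 65412273 (+) had 2 KO tags each and 24 and 23 WT tags. Each of these compares 1 library with 1, with no replicate check.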

How the data were processed

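The authors deposited 1 list per library, in which each poly(A) site has a position, a strand and a value. The values behave as estimated counts of tags, mostly whole and not scaled by the authors. The submitters' processing notes name CASAVA 1.7, Bowtie and build mm9. Rules for grouping tags into sites are not stated in the labels used. Track lines name an offset of 1, which was not applied. Positions count from 1.

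Same-strand intervals that overlapped or touched were merged over the 14 libraries, and values were summed. A site was placed at the 3′ end of its most abundant interval. One-tissue sites needed a value above 0 in both libraries of 1 tissue and 0 elsewhere. CPM use the library's total. Clusters join sites of a tissue and strand up to 10 kb apart. Numbers expected at equal total or nuclear tags were computed from binomial probabilities, with no draw.

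Values were rounded for edgeR 4.0.16 (R 4.3.3): filterByExpr by tissue with a minimum count of 10, TMM scaling, and a quasi-likelihood model with tissue and genotype terms, adjusted by Benjamini-Hochberg over 23856 sites. With 1 library per tissue and genotype it had 5 residual degrees of freedom. DESeq2 1.42.0 was an alternative. The steps were tested on simulated data. Tests over tissues were exact sign-flip tests in Python 3.11.15.

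Named sites are, per tissue, the 5 with the highest lower-of-2 level (some are not printed), the 2 clusters with the most sites, and the 3 largest genotype ratios per direction. The rule, the lists and the one-tissue sites were chosen with earlier results of these data known. p-values rest on the spread between single libraries and tissues, not between animals.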

Additional observations from a re-analysis of the deposited data

Results flagged for a closer look

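The 6 tissues were compared on 7 measures of their one-tissue sites, and 1 value stood far from the others: 857 lung sites were kept out by tags in mESC or 3T3 alone, where kidney had 262 and muscle 62. As a share of the sites found in no other tissue, the value was 20% in lung and 16.6% in adipose tissue. Chance alone flags about 1 in 20 such groups of 6 values, and 7 measures were looked at. The part that the depth of the lung libraries, the deepest of the 12, plays in this number was not tested.

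Data outside the comparisons held signal as well. The mESC library had 190 sites with at least 10 tags and 0 tags in the other 13 libraries, and the 3T3 library had 142. Neither line had a second library in which such a site could be seen again. On chromosome X, left out by the rule, 188 sites would have qualified, of which 58 were in liver, 48 in lung, 35 in kidney, 25 in heart, 12 in muscle and 10 in adipose tissue.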

How the results depend on the processing

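Asking for at least 2 tags in both libraries lowered the numbers of one-tissue sites to 1546 (liver), 1438 (lung), 1052 (kidney), 560 (heart), 409 (muscle) and 267 (adipose tissue), as fewer sites then qualify. At equal total tags the number was 2069 in lung and 1364 in adipose tissue, and at equal nuclear tags 1807 and 1325, while the other 4 tissues stayed within 1.5 times. These calculations take the deposited lists as complete at 1 tag. Merging intervals up to 24 nt apart, ignoring the cell lines or keeping chromosomes X and Y left every tissue within 1.5 times. The share within 5 kb of a shared site was 14.1% when shared meant tags in all 12 tissue libraries, and 59.3% with the wider merging. The share linked to another site of the tissue was 54% on either strand, 60.8% at 50 kb and 53.5% with at least 2 tags.

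Leaving out 1 tissue gave differences in distance between -28.4 and -24.9 percentage points and excesses of same-tissue neighbours between 46.9 and 50.8 points, but 5 tissues allow no p below 0.0625. The mean genotype difference then lay between 0.09 and 0.25 (log2). With the filter on low counts, DESeq2, neighbours within 1 kb and leaving out any 1 library kept the numbers of neighbours called higher within 1.5 times. With no filter, the neighbours called higher numbered 816 (lung), 791 (liver), 535 (kidney), 295 (heart), 184 (muscle) and 140 (adipose tissue), against 2.31% to 5.54% of all sites. The number of one-tissue sites called between genotypes was 0 in every fit, where each such site rests on 1 pair of libraries. The labels number no replicates, and the genotype tests paired the libraries by tissue.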
